A study of Mus musculus with 12 samples.

Results

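The nuclear oxidative phosphorylation genes are the nucleus-encoded subunits of the mitochondrial respiratory chain and of the ATP synthase. They were taken by name from a table of 13528 named genes at 17446 loci, as names beginning with Nduf and a subunit letter (complex I), Sdha to Sdhd (complex II), Uqcr (complex III), Cox4 to Cox8 (complex IV) or Atp5 (complex V), without pseudogenes and the Ndufaf assembly factors. Each name kept its locus with the highest mean FPKM (sequenced fragments of a gene divided by its transcript length and by the size of the library), and a mean of at least 1 FPKM over the 12 libraries was required. Of 74 names at 81 loci, 73 met this limit. Complex I had 31 members, complex II 3, complex III 7, complex IV 16 (with Ndufa4 counted there) and complex V 16. Atp5s and Atp5sl, counted in complex V, are related to the ATP synthase by name. The muscle isoform Cox6a2 lay just outside with a mean of 0.608 FPKM, and Cox4i2 (1.42) and Ndufa4l2 (2.20) lay just inside.

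Oxidative phosphorylation passes electrons from NADH through complex I, and from succinate through complex II, to ubiquinone, then through complex III and cytochrome c to complex IV, where oxygen is reduced. Complexes I, III and IV pump protons across the inner mitochondrial membrane, and complex V, the ATP synthase, uses the gradient to make ATP. Complexes I, III, IV and V also contain subunits encoded by mitochondrial DNA, so their assembly draws on transcripts of both genomes. Mouse embryonic stem cells in the naive state are known to use both respiration and glycolysis, and the epiblast-like state is known for a greater reliance on glycolysis.

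RNA was sequenced from 4 mouse embryonic stem cell lines of strain 129SvEv, 2 wild type (WT; lines 18 and 26) and 2 Arkadia -/- (null; lines 25 and 39), which lack the SMAD pathway ubiquitin ligase encoded by Rnf111. All lines grew in 2i medium with LIF (2i holds inhibitors of GSK3 and MEK), spent 24 h in N2B27 without these on fibronectin and then 4 h in 10 µM SB431542 (SB), which blocks the type I receptor kinases of Activin, Nodal and TGFβ. For each line, 1 dish was harvested in SB and the other dishes were washed and given 10 ng/ml Activin A, a ligand of the TGFβ family, for 3 h or 6 h. The samples analysed here include no dish given new medium but no Activin, so Activin, release from SB, the medium change and the hours in culture cannot be told apart, and the labels do not say whether the lines of a genotype are separate clones or litters, so p-values measure only the spread between these lines.

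The promoters of 6 members are shown with the letters of sequence elements for which promoters of oxidative phosphorylation genes are known, where they hold them. Atp5k, Cox6a1 and Atp5h had the highest mean FPKM among members with NRF1 letters in the printed window, Atp5e had the largest called increase in WT lines at 3 h, Atp5b had the highest level of the catalytic head of the ATP synthase, and Ndufv1 had the largest called decrease in null lines at 3 h. The 150 bases before the RefSeq transcription start are given 5′ to 3′ on the strand of the gene (build GRCm38.p6): Atp5k at chr5:108434400-108434549 (minus strand), Cox6a1 at chr5:115348959-115349108 (minus), Atp5h at chr11:115419920-115420069 (minus), Atp5e at chr2:174464102-174464251 (minus), Atp5b at chr10:128083157-128083306 (plus) and Ndufv1 at chr19:4012756-4012905 (minus). Capitals mark, on either strand, the letters searched for the factors NRF1 (GCGCANGCG), ETS factors such as GABP (CCGGAAG), SP factors (GGGCGG) and the CCAAT box (CCAAT).
Atp5k: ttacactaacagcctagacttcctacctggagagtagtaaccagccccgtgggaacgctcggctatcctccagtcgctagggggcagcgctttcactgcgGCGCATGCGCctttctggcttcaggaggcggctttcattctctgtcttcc
Cox6a1: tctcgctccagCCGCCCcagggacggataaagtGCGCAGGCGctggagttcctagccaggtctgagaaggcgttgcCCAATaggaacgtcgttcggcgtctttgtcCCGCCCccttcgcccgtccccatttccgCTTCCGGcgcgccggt
Atp5h: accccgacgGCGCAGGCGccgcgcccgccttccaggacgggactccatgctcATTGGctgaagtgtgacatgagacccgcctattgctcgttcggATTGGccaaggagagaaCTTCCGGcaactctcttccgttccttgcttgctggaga
Atp5e: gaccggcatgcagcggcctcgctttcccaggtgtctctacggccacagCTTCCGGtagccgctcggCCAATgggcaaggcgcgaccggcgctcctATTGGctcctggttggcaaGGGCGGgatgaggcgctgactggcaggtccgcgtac
Atp5b: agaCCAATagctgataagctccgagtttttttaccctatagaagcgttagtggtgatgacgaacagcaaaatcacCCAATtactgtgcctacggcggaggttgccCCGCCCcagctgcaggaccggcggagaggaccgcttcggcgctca
Ndufv1: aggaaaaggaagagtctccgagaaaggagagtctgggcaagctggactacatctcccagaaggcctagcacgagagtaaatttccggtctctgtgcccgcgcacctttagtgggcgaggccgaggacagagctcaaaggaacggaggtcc

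The Atp5k window held overlapping NRF1 matches read from both strands, Cox6a1 and Atp5h held NRF1, ETS and CCAAT letters, Atp5e held ETS, SP and CCAAT letters, and the Ndufv1 window held none of the letters searched. RefSeq promoters were found for 60 of the 73 members, in windows of 300 bases (250 before the start and 50 after it). NRF1 letters stood in 28.3% of member promoters, against 14.1% of promoters of the genes tested and 6.47% of all promoters. YY1 letters (AAGATGGC) stood in 15.0%, against 4.71% and 2.88%, and ETS letters in 21.7%, against 18.7% and 9.12%. SP letters stood in 40.0%, against 65.5% of tested genes and 35.9% of all promoters, CCAAT in 45.0%, against 39.2% and 37.9%, and ERR letters (TCAAGGTCA) in 1.67%, against 0.249% and 0.407%. A match is a string of letters and not a measured site.

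The member transcripts were abundant. The median mean level of the 72 members tested was 229 FPKM (range 1.42 to 2752), against 6.56 FPKM over all genes tested. Cox4i1 (NM_009941; chromosome 8, 120653922 to 120674210, mm10, counted from 1, as are the coordinates that follow), the ubiquitous isoform of a regulatory subunit of cytochrome c oxidase, was highest at 2752 FPKM. Atp5b, the catalytic β subunit of the ATP synthase, followed at 1237 FPKM and Atp5e, the ε subunit of its central stalk, at 1201 FPKM. The highest member of complex I was the accessory subunit Ndufa7 (888 FPKM), that of complex II the iron-sulphur subunit Sdhb (205 FPKM) and that of complex III the small subunit Uqcrq (616 FPKM). The lowest were Ndufa10 in complex I (46.2 FPKM), Sdha in complex II (32.1 FPKM), the Rieske protein gene Uqcrfs1 in complex III (74.1 FPKM), Cox4i2 in complex IV (1.42 FPKM) and Atp5s in complex V (4.73 FPKM). Together the members took 3.20 to 3.86% of the summed FPKM of a library. In WT lines 18 and 26 this share was 3.32 and 3.20% in SB and 3.69 and 3.63% at 3 h. In null lines 25 and 39 it was 3.4 and 3.61% in SB and 3.56 and 3.79% at 3 h. The summed FPKM of all loci also differed, with 578104 and 584627 in SB and 710393 and 721405 at 3 h in WT lines 18 and 26.

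Isoforms and relatives known from other tissues differed in level. Cox4i2, the lung isoform of subunit 4, had 1.17 to 1.99 FPKM over the 12 libraries, and Ndufa4l2, a hypoxia-linked relative of Ndufa4, had 1.52 to 3.24 FPKM. Cox7b2, a relative of Cox7b, had 4.06 to 8.37 FPKM. Cox7a1, the heart and muscle isoform of subunit 7a, was above the median of all genes, with 23.5 to 42.1 FPKM beside 412 to 914 FPKM of the ubiquitous Cox7a2. Cox6b2, the testis isoform of subunit 6b, had 29.4 to 42.9 FPKM, and Cox7a2l, a factor in supercomplex assembly, had 110.2 to 130.4 FPKM.

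Libraries and labels were checked as follows. Rnf111 stood at 3.19 to 4.27 FPKM in WT and 0.539 to 0.855 FPKM in null libraries. The embryonic stem cell marker list (12 of 12 genes measured, 2 with a mean under 1 FPKM) summed to 1544 to 2579 FPKM, and marker lists of fibroblasts (6 of 9 measured; 10.1 to 20.0 FPKM), endoderm (5 of 8; 3.8 to 6.87), neural cells (5 of 6; 21.1 to 35.4) and muscle (6 of 8; 12.1 to 21.0) were low. The stem cell sum moved with treatment: in WT lines it was 1544 to 1585 FPKM in SB, 2475 to 2529 at 3 h and 2329.7 to 2339 at 6 h, and in null lines 1569 to 1892, 2189.8 to 2476 and 2180.3 to 2579. The neural sum in WT lines was 30.3 to 35.4 FPKM in SB, 23.5 to 23.7 at 3 h and 21.6 to 22.2 at 6 h. The trophoblast list (6 of 7) summed to 77.7 to 78.9 FPKM in WT and 105 to 147 FPKM in null SB libraries. The part of these differences in the member results was not tested. Read totals are unknown, and the steps between low values gave depths of 1 to 1.81 relative to the shallowest library. In SB the library of null line 39 stood apart: 58 of 73 members were above all 3 other SB libraries there, as were 31.9% of all genes tested. Its members summed to 26041 FPKM, against 19208 and 18712 FPKM in WT lines 18 and 26 and 20530 FPKM in null line 25. All loci together summed to 722232 FPKM in that library, against 578104, 584627 and 604602 FPKM in the same order. The member share was thus 3.61%, against 3.32, 3.20 and 3.40%.

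**Figure D1:**
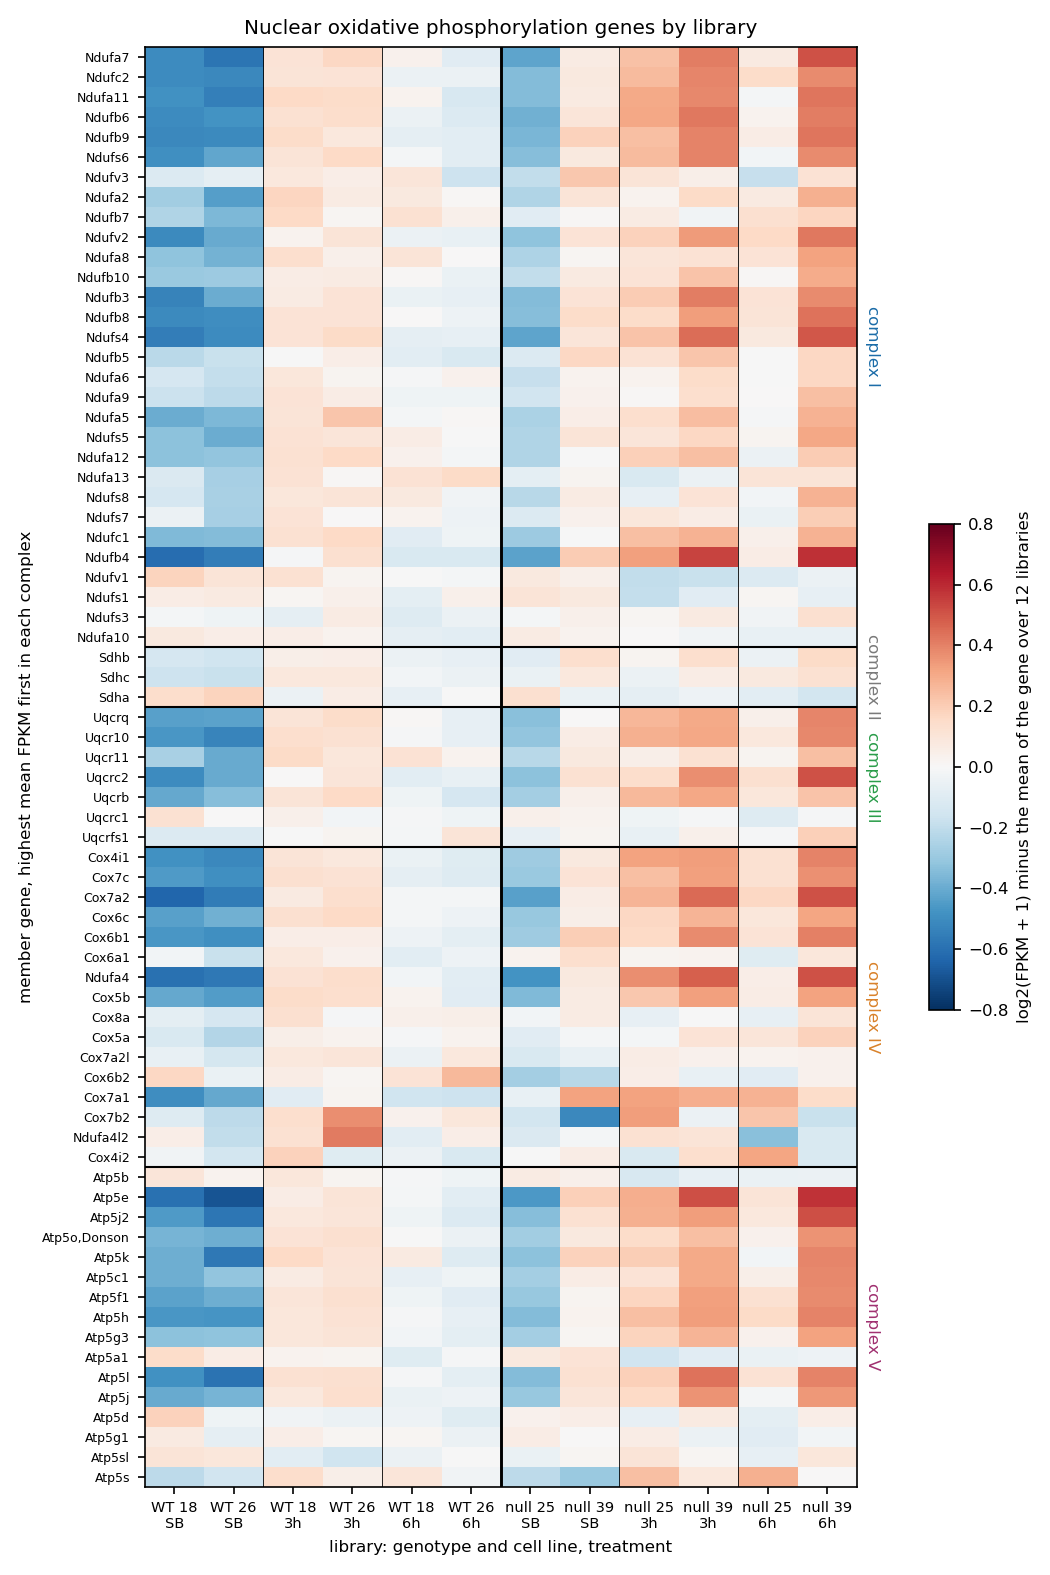
Each row is 1 of 72 of the 73 members, ordered by mean FPKM within complexes I to V, and each column is 1 of 12 libraries; colour gives log2(FPKM + 1) minus the mean of that gene over the libraries. Most rows are low (blue) in the SB libraries of WT lines and of null line 25, and the SB library of null line 39 is closer to the Activin libraries. Ndufs1, Ndufv1, Sdha, Uqcrc1, Atp5a1 and Atp5b vary less than most rows, although Ndufs1 and Ndufv1 were called lower in null lines at 3 h.

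The comparison of WT lines at 3 h of Activin with SB asked which members respond early. Of 72 members tested with limma over all genes, 39 rose and 0 fell, whereas 12.7% of all 12821 genes tested rose and 9.83% fell. The median log2 change of the members was 0.44, against −0.01 over all genes, and 62 of the 72 were above 0. These are changes in FPKM and not in the member share of the summed FPKM. That sum was also higher at 3 h than in SB in both WT lines, and its part in the member changes was not tested. By values alone, 59 of 73 members were higher in both 3 h libraries than in both SB libraries and 5 were lower, against 34.9% and 35.6% of all genes tested. In bulk RNA, fewer cells of a type and less RNA per cell cannot be told apart. With the cell line as a block, 53 members rose and 1 fell (Atp5sl, −0.22; limma adjusted p = 0.044), against 21.3% and 15.9% of all genes. Without WT line 18 or without WT line 26, in fits where the remaining line is assumed to vary like the other groups, 0 members were called by limma, with a lowest adjusted p of 0.25 and 0.27, while 1.06% and 0.983% of all genes were called higher. At an unadjusted p under 0.05 there were 10 and 3 members, against 13.3% and 16.4% of all genes. Without the SB library of null line 39, 44 rose and 0 fell, against 15.2% and 11.1% of all genes.

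Complex I was divided by role. The core subunits carry the flavin, the iron-sulphur clusters and the quinone site, and 1 of 7 rose, against 12.7% of all genes. Here, and in the roles below with 1 call, the count cannot be told from the share of all genes. Where 3 values are given for a line, they stand in the order SB, 3 h and 6 h. Ndufv2 (NM_028388; chromosome 17, 66079027 to 66101735), a core iron-sulphur subunit, had 184, 268 and 254 FPKM for WT line 18, and 198, 282 and 252 for line 26. Its log2 increase at 3 h was 0.53 (SE 0.142; limma adjusted p = 0.032), and the groups did not overlap. With quantile normalization it was 0.22 (adjusted p = 0.052). Ndufs1 (NM_001160039; chromosome 1, 63143494 to 63163852), the largest core subunit, had 64.4, 62.4 and 58.3 FPKM in line 18 and 65.0, 63.6 and 63.6 in line 26. Ndufv1 (NM_133666; chromosome 19, 4007498 to 4012787), which binds NADH and the flavin, had 83.4, 80.1 and 73.3 FPKM in line 18 and 79.0, 74.7 and 72.8 in line 26. Their log2 differences at 3 h were −0.04 (SE 0.0633; limma adjusted p = 0.69) and −0.07 (SE 0.0578; 0.41), and for Ndufv1 the SB and 3 h values overlapped. The core subunits Ndufs3, Ndufs7 and Ndufs8 had log2 differences of 0.02, 0.22 and 0.29, none called.

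The accessory subunits surround the core and serve in its assembly and stability. Of 24 tested, 17 rose and 0 fell, against 12.7% and 9.83% of all genes, with a median of 0.48. Ndufa7 (NM_023202; chromosome 17, 33824417 to 33838328) had 611, 934 and 887 FPKM in line 18 and 577, 972 and 811 in line 26. Every Activin value of the WT lines was above every SB value, and the log2 increase at 3 h was 0.68 (SE 0.181; limma adjusted p = 0.031). Ndufa11, a membrane-arm subunit, rose from 288 and 275 to 451 and 447 FPKM (log2 change 0.67, SE 0.163, adjusted p = 0.024). Ndufc1 (chromosome 3, 51404763 to 51409058) rose from 68.0 and 68.3 to 94.8 and 97.3 FPKM (0.49, SE 0.104, adjusted p = 0.015). The accessory subunit Ndufa10 differed by −0.03 (SE 0.0475; adjusted p = 0.72), with a spread of 1.12 times between its highest and lowest library.

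Complex II is the only complex made wholly of nucleus-encoded subunits, and 1 of its 3 measured members rose, against 12.7% of all genes. Sdhc (NM_025321; chromosome 1, 171129093 to 171150636), a membrane anchor, had 125, 149 and 138 FPKM in line 18 and 124, 149 and 136 in line 26. Its log2 increase at 3 h was 0.26 (SE 0.0652; limma adjusted p = 0.027), but with quantile normalization the difference was −0.01 (adjusted p = 0.904). Sdha (chromosome 13, 74322251 to 74362714), the flavoprotein with the succinate site, had 35.5, 31.0 and 30.6 FPKM in line 18 and 36.4, 33.4 and 31.9 in line 26. Both 3 h values of Sdha lay below both SB values, and the log2 difference was −0.16 (SE 0.0708; adjusted p = 0.14). Sdhb had 186 and 183 FPKM in SB and 211 and 212 at 3 h (0.19, SE 0.094, adjusted p = 0.17).

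In complex III, the cytochrome bc1 complex, 4 of 7 members rose (Uqcr10, Uqcr11, Uqcrb and Uqcrq), against 12.7% of all genes, with a median of 0.50. Uqcr10 (NM_197979; chromosome 11, 4701671 to 4704415), a small subunit, had 342, 519 and 471 FPKM in line 18 and 328, 515 and 452 in line 26. The groups were well apart, with a log2 increase of 0.63 at 3 h (SE 0.132; limma adjusted p = 0.014). Uqcrb, which lies near the quinone site, rose from 187 and 196 to 267 and 278 FPKM (0.51, SE 0.104, adjusted p = 0.013), a difference of 0.18 with quantile normalization (adjusted p = 0.062). The core proteins differed from each other in value. Uqcrc1 had 124 and 114 FPKM in SB and 117 and 112 at 3 h (−0.05, adjusted p = 0.58), and Uqcrc2 had 238 and 256 in SB and 339 and 362 at 3 h (0.50, adjusted p = 0.059). Uqcrfs1, the Rieske iron-sulphur protein, differed by 0.12 (adjusted p = 0.30).

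Of the 10 ubiquitous complex IV members, 7 rose, against 12.7% of all genes, with a median of 0.56. Cox4i1 had 1928, 2895 and 2597 FPKM in line 18 and 1891, 2859 and 2524 in line 26. Both WT lines were higher at each Activin time than in SB, with a log2 increase at 3 h of 0.59 (SE 0.145; limma adjusted p = 0.024), which was 0.06 with quantile normalization (adjusted p = 0.50). Cox7a2 (NM_009945; chromosome 9, 79755303 to 79759922) had 412, 673 and 633 FPKM in line 18 and 434, 704 and 634 in line 26 (0.70 at 3 h, SE 0.165, adjusted p = 0.021). Ndufa4 (NM_010886; chromosome 6, 11899894 to 12081253), once assigned to complex I and now placed in complex IV, rose from 289 and 294 to 474 and 482 FPKM at 3 h (0.71, SE 0.185, adjusted p = 0.029). Cox5a, which with Cox4i1 forms an early assembly module, differed by 0.22 (adjusted p = 0.060) and Cox6a1 by 0.16 (0.23). Among the 6 tissue isoforms and relatives, 1 rose: Cox7a1 went from 23.5 and 25.0 to 31.5 and 34.1 FPKM (0.42, SE 0.112, adjusted p = 0.032), which was 0.15 with the length trend removed (0.30).

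In complex V, 7 of 8 tested members of the membrane part and peripheral stalk rose (median 0.55), while 1 of 5 members of the soluble F1 head did. Over all genes 12.7% rose. Atp5h (NM_027862; chromosome 11, 115415546 to 115420175), a peripheral stalk subunit, had 324, 477 and 445 FPKM in line 18 and 323, 486 and 429 in line 26. The log2 increase at 3 h was 0.57 (SE 0.126; limma adjusted p = 0.016), with no overlap between groups. Atp5l, of the same part, was also called and had 218, 332 and 303 FPKM in line 18 and 202, 334 and 289 in line 26. Its log2 increase at 3 h was 0.67 with the cell line as a block (limma adjusted p = 0.00093) and 0.42 with the length trend removed (0.027). The rotor ring genes Atp5g1 and Atp5g3 encode the same mature c subunit. Atp5g3 rose from 326 and 327 to 435 and 439.6 FPKM (0.42, SE 0.115, adjusted p = 0.034), which was 0.08 with quantile normalization (0.16) and 0.21 with the length trend removed (0.057), and Atp5g1 had 51.4 and 46.5 FPKM in SB and 50.9 and 49.5 at 3 h (0.04, adjusted p = 0.72).

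The called F1 member was Atp5e (NM_025983; chromosome 2, 174461015 to 174464173), with 767, 1209 and 1147 FPKM in line 18 and 719.8, 1247 and 1094 in line 26. Its log2 increase at 3 h, 0.72 (SE 0.216; limma adjusted p = 0.044), had the largest size among called members and was 0.28 with quantile normalization (adjusted p = 0.087). Atp5b (NM_016774; chromosome 10, 128083215 to 128090475) had 1319.8, 1317 and 1225 FPKM in line 18 and 1258, 1257 and 1206 in line 26. Atp5a1 (NM_007505; chromosome 18, 77773405 to 77783006), the α subunit that forms the hexamer of the head with Atp5b, had 432, 398 and 365 FPKM and 406, 395 and 387. These catalytic-head subunits had no called increase at 3 h: the log2 difference of Atp5a1 was −0.08 (adjusted p = 0.42) and that of Atp5b had an adjusted p of 0.98. Atp5c1, the γ subunit of the rotating shaft, went from 388 and 409 to 532 and 547 FPKM (0.44, SE 0.138, adjusted p = 0.052). The locus joined as Atp5o,Donson covers the oligomycin sensitivity subunit and a neighbouring gene. It had 544, 758 and 701 FPKM in line 18 and 536, 768 and 682 in line 26, and it stayed out of the fit because the authors' table marks its value in WT line 26 in SB as failed.

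**Figure D2:**
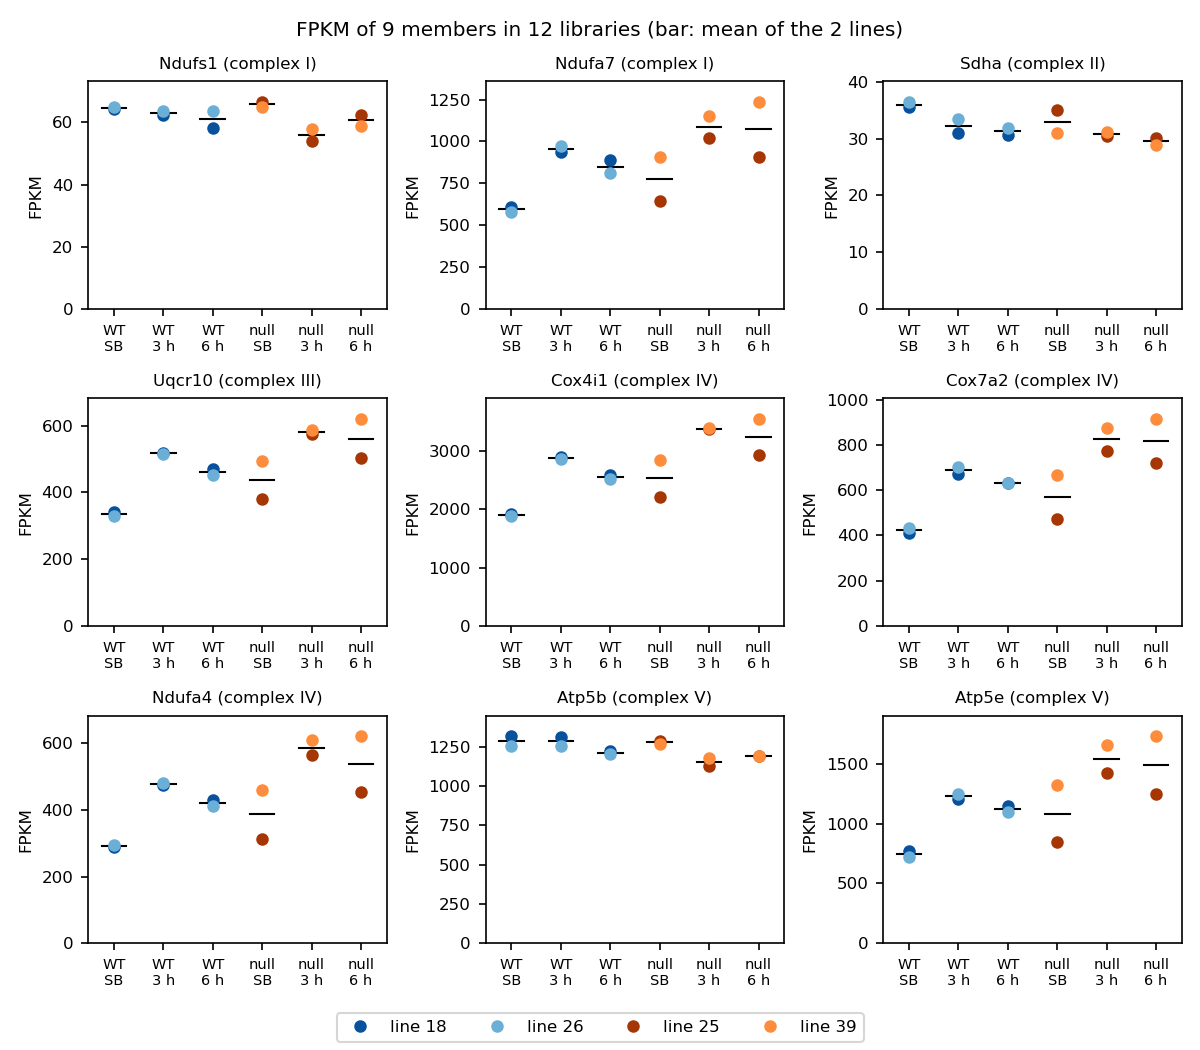
FPKM (vertical axes, from 0) of 9 members by group (horizontal axes); points are the 12 libraries, their colour gives the cell line, and each bar is the mean of 2 lines. Ndufs1, Sdha and Atp5b vary less over the groups, although Ndufs1 was called lower in null lines at 3 h. Ndufa7, Uqcr10, Cox4i1, Cox7a2, Ndufa4 and Atp5e are lowest in the WT SB libraries and are higher in null line 39 than in null line 25 in SB.

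Members were shorter and more abundant than most genes, and both properties moved with the 3 h change. The median annotated transcript of a tested member was 738.5 nt, against 2670 nt over all genes tested, and 54.2% of members were at most 800 nt long, against 7.16% of genes. By complex the median was 758, 2900, 1363, 614 and 931 nt for complexes I to V, so counts by complex also compare different lengths. Across the 72 members, the rank correlation of the log2 change with length was −0.48 and that with mean FPKM was 0.61. Across 12743 genes with an annotated length these were −0.24 and 0.18. Genes of a table share its libraries and are not independent, so these are descriptions. Of 7 members of at most 500 nt, 7 rose, and of 32 members between 500 and 800 nt, 22 rose. Of 17 members between 800 and 1500 nt, 5 rose, and of 15 between 1500 and 3000 nt, 4 rose. Sdhc, at 3171 nt, also rose. Other genes of these 4 length ranges, with ribosomal protein genes left out, rose in 21.9%, 26.1%, 18.4% and 11.2% of cases. Among genes of at least 100 FPKM and at most 800 nt, 27 of 32 members rose (median 0.56), and 63.2% of the other 144 genes rose (median 0.50).

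**Figure D3:**
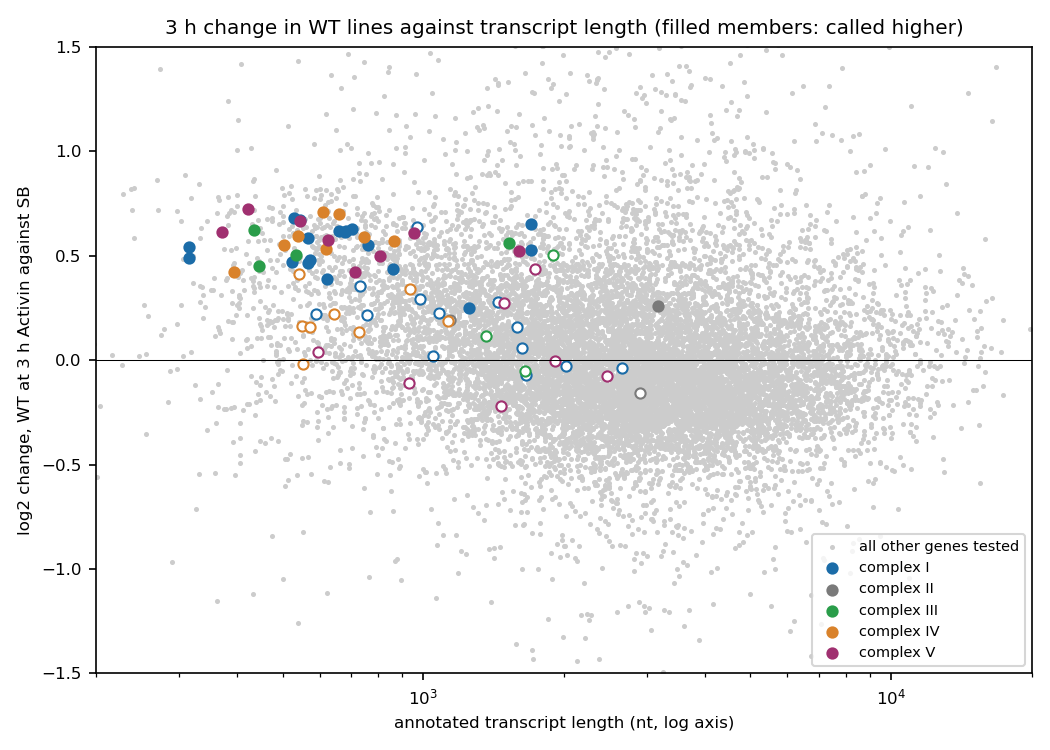
Log2 change in WT lines at 3 h of Activin against SB (vertical axis) by annotated transcript length in nt (horizontal log axis), with the members coloured by complex, filled where called higher, over all other genes tested in grey. Members up to 800 nt lie mostly between 0.3 and 0.75. Those of 1500 nt or more are spread: Sdha, Atp5a1 and Ndufs1 lie near or below 0, while Ndufs4, Uqcrq and Ndufv2 lie within the range of most members up to 800 nt.

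Removing a smooth trend on transcript length from each library left 29 members called higher and 2 lower at 3 h in WT lines, against 12.4% and 8.22% of all genes. Of the 29, 28 were among the 39, and Atp5c1 was added, while Atp5sl (related to the ATP synthase by name) and Atp5d fell. Accessory complex I subunits were then called higher in 13 of 24 cases and core subunits in 1 of 7. Complex II had 1 of 3 called higher, complex III 3 of 7, ubiquitous complex IV members 6 of 10 and complex IV isoforms and relatives 0 of 6. In complex V the membrane and stalk part had 4 of 8 and the F1 head 1 of 5, where 1 also fell. With trends on length and on mean level removed, 17 rose, all among the 39, and 3 fell, against 12% and 7.49% of all genes. The median of the members was then 0.11. Ndufs4 (0.47), an accessory subunit, Ndufv2 (0.31), Ndufa4 (0.29) and Cox7a2 (0.26) were among the 17, and Atp5d (−0.34), Atp5a1 (−0.26) and Atp5sl (−0.23) fell. Quantile normalization gave 23 higher, all among the 39, and 5 lower, against 10.7% and 13.2% of all genes, with a member median of 0.16. The 5 were Atp5b (−0.46), Atp5a1 (−0.37), Uqcrc1 (−0.29), Atp5d (−0.28) and Ndufv1 (−0.22). The members named here under other settings were chosen after their values were seen.

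**Figure D4:**
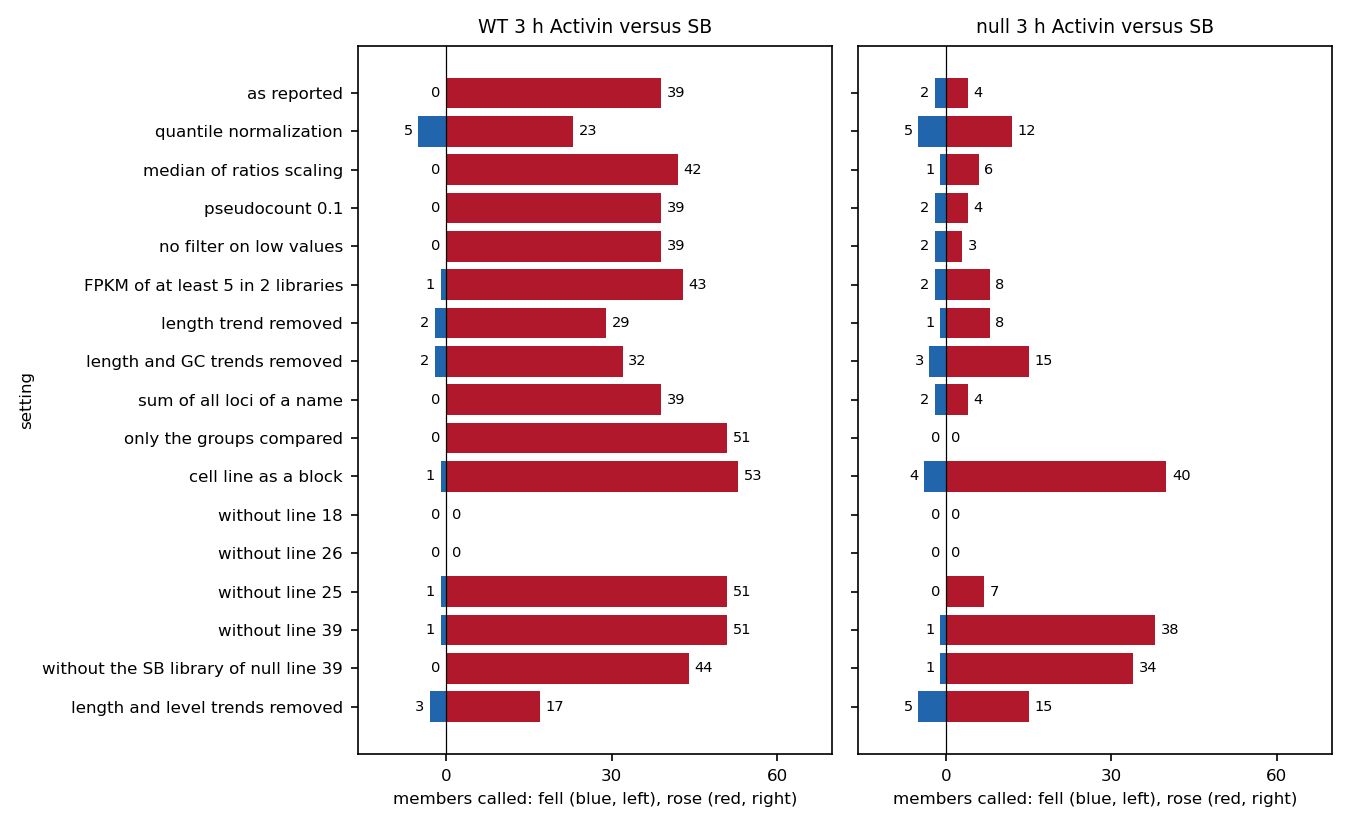
Number of members called lower (blue, left of 0) and higher (red, right of 0) at an adjusted p under 0.05 at 3 h of Activin against SB, in WT lines (left panel) and null lines (right panel), under the reported fit and each of 16 alternatives. In WT lines the count of higher members runs from 0 without WT line 18 or 26 to 53 with the cell line as a block, and in null lines from 0 to 40.

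After 6 h in WT lines, 8 of 72 members rose and 0 fell by limma against SB, while 9.59% of all genes rose and 6.31% fell. The median was 0.31, and 60 members were above 0. The 8 were Uqcr11 (0.41, SE 0.114, adjusted p = 0.044), Uqcr10 (0.46), Atp5h (0.43), Ndufa8 (0.40), Ndufc2 (0.46), Ndufb7 (0.38, SE 0.081, adjusted p = 0.017), Ndufa13 (0.32) and Cox7a2 (0.58, SE 0.165, adjusted p = 0.045). Values did not overlap with SB for 56 members that were higher and 11 that were lower, against 37.2% and 32.2% of all genes. With only the groups compared in the fit, 43 rose, against 16.9% of all genes. With the cell line as a block, 47 members rose and 3 fell (Sdha, Ndufv1 and Ndufa10), against 21.6% and 12.3% of all genes. Without WT line 18 or WT line 26, 0 were called. Without the SB library of null line 39, 35 rose and 1 fell, against 13.5% and 7.94% of all genes. Quantile normalization gave 6 higher and 8 lower, against 9.06% and 10.4%.

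Between 3 h and 6 h in WT lines, 0 members were called by limma, against 1.22% of genes that rose and 1.31% that fell, and 2 members had an unadjusted p under 0.05, against 16.9% of all genes. The median difference was −0.13, with 4 of 72 members above 0. Line by line, 3 of 73 members were higher at 6 h than at 3 h in line 18 and 9 of 73 in line 26, against 51.4% and 52.8% of all genes. Cox4i1 went from 2895 to 2597 FPKM in line 18 and from 2859 to 2524 in line 26, a log2 difference of −0.17 (SE 0.145; limma adjusted p = 0.63).

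In null lines at 3 h of Activin, 4 members rose and 2 fell by limma against SB, while 6.5% of all genes rose and 7.14% fell. The median was 0.27, and 57 of 72 members were above 0. Groups did not overlap for 41 of 73 members that were higher and 7 that were lower, against 25.0% and 30.1% of all genes. Uqcrb had 206, 297 and 264 FPKM in line 25 and 256, 308 and 291 in line 39, with a log2 increase of 0.40 at 3 h (SE 0.104; limma adjusted p = 0.038). Ndufc1 had 70.9, 103 and 89.5 FPKM in line 25 and 87.0, 106 and 106 in line 39 (0.41, SE 0.104, adjusted p = 0.035). Both genes were higher in each 3 h library than in each SB library. Atp5h had 352, 529 and 499 FPKM in line 25 and 458, 566 and 591 in line 39 (0.44, SE 0.126, adjusted p = 0.049). Atp5s (NM_026536; chromosome 12, 69724939 to 69744700), a gene related by name to the ATP synthase and known as coupling factor B, had 3.92, 5.73 and 5.92 FPKM in line 25 and 3.63, 5.04 and 4.70 in line 39 (0.42, SE 0.108, adjusted p = 0.037). In WT lines the first 3 of these were also called at 3 h, and Atp5s was not (0.28, adjusted p = 0.097). In null lines at 3 h Atp5s was not called without the SB library of line 39 (0.37, adjusted p = 0.098), and Uqcrb was 0.19 with quantile normalization (0.066).

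The 2 members that fell in null lines at 3 h were Ndufv1 and Ndufs1, a smaller share of the members than the 7.14% of all genes that fell. Both are core subunits of complex I, but so few calls give no result about that role. Ndufv1 had 77.6, 64.1 and 68.1 FPKM in line 25 and 75.8, 64.9 and 71.1 in line 39, with a log2 change of −0.25 (SE 0.0578; limma adjusted p = 0.027). Ndufs1 had 66.5, 54.0 and 62.4 FPKM in line 25 and 65.1, 57.8 and 58.9 in line 39 (−0.23, SE 0.0633, adjusted p = 0.044). For both genes the 3 h values lay below both SB values. Ndufs1 was not called with the length trend removed (−0.17, adjusted p = 0.087) or without the SB library of null line 39 (−0.25, 0.066). Atp5a1 had 412, 350.5 and 375 FPKM in line 25 and 421, 366 and 379 in line 39 (−0.22 at 3 h, adjusted p = 0.064), and Atp5b had 1292, 1128 and 1193 and 1273, 1178 and 1195 (−0.15, adjusted p = 0.23).

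The number of members called in null lines differed with and without the SB library of line 39. Within line 25 the median member difference between 3 h and SB was 0.38, with 60 of 73 members higher, and within line 39 it was 0.16, with 56 higher. Of all genes, 47.7% and 48.7% were higher in these lines. In WT lines 18 and 26 the median member difference was 0.44 and 0.49, with 60 and 64 higher, against 48.2% and 50.3% of all genes. Without that library, 34 members rose and 1 fell at 3 h in null lines, against 9.23% and 7.5% of all genes. With the cell line as a block, 40 rose and 4 fell (Ndufv1, Ndufs1, Atp5a1 and Atp5b), against 15.5% and 14.1% of all genes. With the length trend removed, 8 rose and 1 fell, against 7.49% and 7.17%. Without WT line 18 or without line 26, 0 were called, with 12 members and 21.8% of genes at an unadjusted p under 0.05 in each case, although the null libraries were the same. With only the groups compared in the fit, 0 were called, against 1.2% of genes that rose and 0.172% that fell.

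Of the complex IV members, 0 were called in null lines at 3 h, and 3 that were called in WT lines are given line by line. Cox4i1 had 2217, 3378 and 2936 FPKM in line 25 and 2852, 3397 and 3548 in line 39, with a log2 difference of 0.43 at 3 h (SE 0.145; limma adjusted p = 0.083, and 0.014 with the cell line as a block). Cox7a2 had 475, 773 and 719.9 FPKM in line 25 and 667, 876 and 914 in line 39 (0.55, adjusted p = 0.060, blocked 0.0044). Ndufa4 had 313, 565 and 454 FPKM in line 25 and 461, 609.8 and 622 in line 39 (0.63, adjusted p = 0.056, blocked 0.0068). With the block all 3 were called higher. In each of them line 39 was above line 25 in SB, at 3 h and at 6 h.

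At 6 h in null lines, 1 member rose by limma against SB, Atp5s (0.40, SE 0.108, adjusted p = 0.046), and 0 fell, while 7.87% of all genes rose and 5.53% fell. The median was 0.24, with 58 of 72 members above 0, and 23 of 73 were higher and 10 lower without overlap, against 26.9% and 26.9% of all genes. With the cell line as a block 45 rose and 1 fell (Ndufv1), against 19.4% and 12% of all genes. Without the SB library of null line 39, 32 rose and 1 fell, against 12.3% and 7.52%. Between 3 h and 6 h, 0 members were called, against 2.78% of genes that rose and 1.86% that fell, and 2 had an unadjusted p under 0.05, against 22.2% of all genes. In line 25, 15 of 73 members were higher at 6 h than at 3 h, and in line 39, 52 were, against 52.9% and 56.3% of all genes. The median member difference was −0.1 in line 25 and 0.05 in line 39.

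The difference between genotypes in the response was tested directly. At 3 h, 0 members and 0.0% of all genes were called by limma, and 4 members had an unadjusted p under 0.05, against 5.1% of all genes: Sdhc (−0.27, SE 0.0922), Ndufb7 (−0.32), Ndufa13 (−0.31) and Atp5sl (0.30). The null change minus the WT change was below 0 in 65 of 72 members, with a median of −0.15. These members include Ndufv1 and Ndufs1, whose null change was a larger decrease. The share of all genes below 0 is not given here, so the count describes the members alone. Line by line, the median member change at 3 h was 0.44 and 0.49 in WT lines 18 and 26. It was 0.38 in null line 25 and 0.16 in null line 39, whose SB library stood apart. The medians over all genes in these lines were −0.02, 0.0, −0.02 and −0.01. At 6 h, 0 members and 0.0% of genes were called, 0 members and 2.98% of genes had an unadjusted p under 0.05, and the median difference was −0.04. Atp5e differed in its 3 h response by −0.18 (SE 0.305; adjusted p = 0.94), and Cox4i1 by −0.16 (SE 0.206; adjusted p = 0.93). The standard errors were as large as or larger than these differences.

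**Figure D5:**
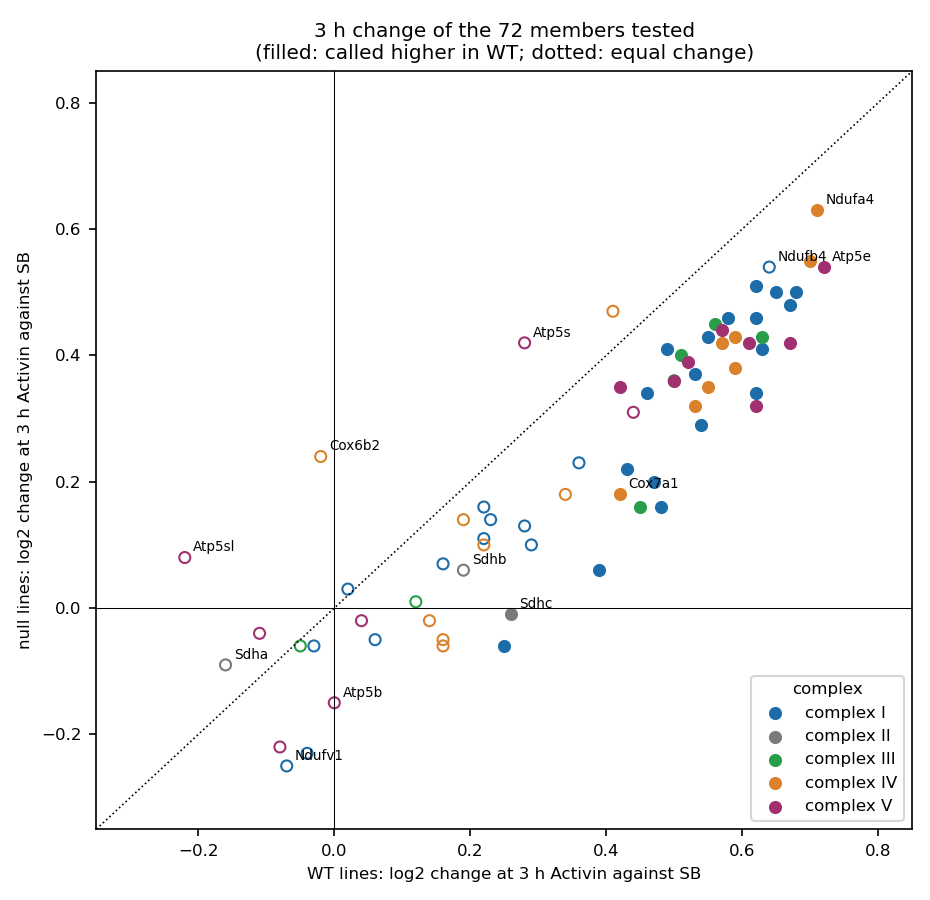
Log2 change at 3 h of Activin against SB in WT lines (horizontal axis) and null lines (vertical axis) for the 72 members tested, coloured by complex and filled where called higher in WT lines; the dotted line marks equal change. Most points lie below the line, Ndufa4 and Atp5e lie at the upper right, and Atp5s, Cox6b2 and Atp5sl lie above the line.

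Null and WT lines were compared within each treatment. In SB, 0 members were called by limma, against 0.25% of genes higher and 0.0624% lower in null lines, and 27 members and 14.9% of all genes had an unadjusted p under 0.05. The median member difference, null minus WT, was 0.24, and 53 of 73 were higher and 4 lower in both null lines, against 24.5% and 22.6% of all genes. The median difference from WT lines 18 and 26 was 0.08 and 0.09 for null line 25 and 0.37 and 0.37 for null line 39. Without line 25, 44 members were called higher, against 12.4% of all genes. That fit has as its null SB group only the line 39 library that stood apart, which is assumed to vary like the other groups. Without line 39, 0 were called higher, against 0.0546% of all genes. Cox7a1 had the lowest p, with 23.5 and 25.0 FPKM in WT and 32.1 and 42.1 FPKM in null SB libraries (log2 difference 0.58, SE 0.112, limma adjusted p = 0.089). Cox6b2 was lower in null lines, with 40.1 and 34.4 FPKM in WT and 29.4 and 30.5 FPKM in null SB libraries (−0.30, SE 0.0889, adjusted p = 0.23).

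At 3 h of Activin, 0 members differed between genotypes by limma, against 0.133% of genes higher and 0.25% lower in null lines. The median was 0.07, 4 members and 12.9% of genes had an unadjusted p under 0.05, and Ndufv1 had a log2 difference of −0.26 (SE 0.0578; adjusted p = 0.13). At 6 h, 0 were called, against 0.148% and 0.0624% of genes, with a median of 0.17 and with 10 members and 14.7% of genes at an unadjusted p under 0.05. Without null line 25, which leaves 1 null library per treatment that is assumed to vary like the other groups, 3 members at 3 h and 38 at 6 h were called higher, against 0.593% and 9.47% of all genes. Values did not overlap for 38 higher and 9 lower members at 3 h, against 22.6% and 25.6% of genes, and for 42 and 6 at 6 h, against 23.7% and 25.7%.

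Genes that work with the respiratory chain were counted in the same fit at 3 h in WT lines, where 12.7% of all genes rose and 9.83% fell. Of 43 assembly factors tested, 9 rose and 2 fell, with a median of 0.17, among them Pet100 (0.72, limma adjusted p = 0.012) and Cox14 (0.63, 0.022), which act in complex IV assembly, and Cox15 (−0.31, 0.029), which makes haem a. Of 15 genes of the citric acid cycle and pyruvate dehydrogenase, 1 rose (Idh3b, 0.24) and 1 fell (Ogdh, −0.39), with a median of −0.08. Of 6 genes for cytochrome c, carriers and pores, 1 rose (Cycs, cytochrome c, 0.41, adjusted p = 0.049), and of 11 genes of coenzyme Q synthesis, 1 rose (Coq10b, 0.69, adjusted p = 0.0017). Of 13 regulators of mitochondrial genes, Myc rose (0.51, adjusted p = 0.0053) and Polrmt, the mitochondrial RNA polymerase, fell (−0.30, adjusted p = 0.045). Among these regulators are genes for NRF1, GABP, YY1 and ERR factors, with log2 differences of 0.07 (Nrf1), −0.06 (Gabpa), 0.17 (Yy1), 0.18 (Esrra) and 0.12 (Esrrb), none called. Genes for SP and CCAAT box factors were not in the list.

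Other large sets of short, abundant transcripts were counted beside the members. At 3 h in WT lines 12.7% of all genes rose and 9.83% fell, and in null lines 6.5% rose. Of 72 cytosolic ribosomal protein genes, 56 rose and 0 fell at 3 h in WT lines (median 0.56). Of 72 mitochondrial ribosomal protein genes, 22 rose and 1 fell (median 0.33), and of 37 proteasome subunits, 16 rose and 1 fell (median 0.29). In null lines at 3 h these sets had medians of 0.36, 0.16 and 0.15, with 8, 2 and 2 genes called higher. The median of the ribosomal protein genes between 3 h and SB was 0.55, 0.56, 0.51 and 0.22 in lines 18, 26, 25 and 39, beside 0.44, 0.49, 0.38 and 0.16 for the members. The share of summed FPKM held by cytosolic ribosomal protein genes ran from 14.4 to 18.3% over the libraries. The part of library composition in the member changes was not tested.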

How the data were processed

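The deposited values are FPKM per gene locus, per the file headers. The authors used build mm10, as the submitters' processing notes record. How reads were aligned, assigned to strands, quantified and scaled is not given in the sources used here. For this reason overlapping and antisense genes, and the 7 members with pseudogenes in RefSeq (Cox5b, Ndufa12, Cox7c, Atp5c1, Ndufs5, Atp5k and Atp5l), are uncertain. The labels' protocols give poly(A) RNA and single reads of 50 bp.

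Genes with at least 1 FPKM in at least 2 libraries (12821) were tested with limma 3.58.1 in R 4.3.3 after the transform log2(FPKM + 1). The model held 6 group means and left 6 residual degrees of freedom, and variances were moderated along a trend. P-values were two-sided, adjusted by Benjamini-Hochberg over all tested genes and called under 0.05. Fold changes on this scale understate the changes of low genes. The fit was tested on simulated data. Other values were computed in Python 3.11.15. Transcript lengths and GC content came from GENCODE transcripts matched by RefSeq ID or symbol, and promoters from RefSeq (GRCm38.p6). The transcript form present in the cells was not determined, so an annotated length, such as that of Uqcrq, may differ from it. Starts of loci in the table count from 0 and were raised by 1. For 5 members with several loci 7 further loci were left out. The members and gene lists were chosen with earlier results of these data known.

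Members named with values were the core or catalytic subunits, tissue isoforms, the highest and lowest of each complex, and the 6 largest changes called in each contrast, and others are named as chosen after their values were seen. Members not named count in totals and medians, and 1 of them is also left out of the heat map. The marker lists were for embryonic stem cells, fibroblasts, endoderm, trophoblast, neural cells and muscle. Replicate numbers are cell lines, so the 3 libraries of a line are paired by the labels. Deviations of a line from its group means correlated across genes at 0.05, 0.05 and 0.02 in WT and 0.25, 0.35 and 0.24 in null lines. Alternatives covered normalization, filter, pseudocount, length, GC and level trends, multiple loci, the pairing and each line left out.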

Additional observations from a re-analysis of the deposited data

How the results depend on the processing

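Counts of members called higher and lower against SB were recomputed under 16 alternatives, 2 of them (without the SB library of null line 39, and length and level trends removed) chosen after seeing the data. A count with no share of all genes beside it here or above was not set against all genes. It describes the members alone and cannot be told from a change shared by other genes. In WT lines at 3 h, beside 39 and 0, quantile normalization gave 23 and 5, length and level trends removed 17 and 3, the block for cell line 53 and 1, and lower members numbered 2 with the length trend, 2 with length and GC trends removed and 1 at 5 FPKM. In WT lines at 6 h, beside 8 and 0, the fit of only the groups compared gave 43 higher (16.9% of all genes), the block 47 and 3, length and GC trends 13 higher (10.8%), length and level trends 4 and 4, no library of null line 39 in SB 35 and 1, and lower members numbered 8 with quantiles and 2 with the length trend. In null lines at 3 h, beside 4 and 2, the block gave 40 and 4, quantiles 12 and 5, length 8 and 1, length and GC 15 higher (9.06%), length and level 15 and 5, 5 FPKM 8 higher (7.55%), the groups compared 0 and 0, median ratios 1 lower, and no SB library of line 39 34 and 1. At 6 h, beside 1 and 0, the block gave 45 and 1, quantiles 4 and 7, length 3, length and GC 6 (8.11%), length and level 5 and 4, 5 FPKM 2 (11.1%), summed loci 0, the groups compared 0, and no SB library of line 39 32 and 1.

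Leaving out 1 line each gave 0 to 51 higher and 0 to 1 lower in WT at 3 h, 0 to 47 and 0 to 2 at 6 h, 0 to 38 and 0 to 1 in null lines at 3 h, 0 to 34 higher at 6 h (at the highest counts 20.0 or 20.1%, 19.7%, 10.0% and 10.4% of all genes were called higher), and 0 to 2 lower between 6 and 3 h in WT. Null against WT gave 0 to 44 higher in SB, 0 to 3 at 3 h and 0 to 38 at 6 h. The blocked fit, which pairs libraries of a line, changed no call in the other contrasts. Of 32 calls of named members, 32 held with the block and 0 without WT line 18 or 26, while Sdhc at 3 h in WT became −0.010 with quantiles. The member share of summed FPKM was 3.57% and became 4.28% without ribosomal protein genes. The cause of these shifts was not tested. Groups of 2 lines, an unknown read depth and no medium control limit every comparison.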

Other observations

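The table names no locus of X, Y or mitochondrial DNA. Of its 2666 unnamed loci, 1413 were there, so the 13 subunits encoded by mitochondrial DNA and the X-linked subunits are not members. Stretches of them were read from unnamed loci by position (mm10), with no test. The mitochondrial locus from 5 to 6439, which holds both ribosomal RNAs, mt-Nd1, mt-Nd2 and part of mt-Co1, had 3 h values 1.32, 1.14, 1.33 and 1.51 times those in SB in lines 18, 26, 25 and 39, and 6 h values 0.964, 0.79, 0.896 and 1.1 times. The locus from 10993 to 16299, which holds mt-Nd5, mt-Nd6, mt-Cytb and part of mt-Nd4, had ratios of 1.29, 1.08, 1.33 and 1.5 at 3 h and 0.943, 0.743, 0.83 and 1.11 at 6 h. All 4 lines were higher at 3 h than in SB, and only null line 39 was higher at 6 h.

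Of 4 unnamed loci on Cox7b, a ubiquitous complex IV subunit on X, the one with the highest mean FPKM covered 31.2% of the gene. In the order SB, 3 h and 6 h it had 36.6, 59.1 and 54.4 FPKM in WT line 18 and 36.9, 64.7 and 50.0 in line 26, and 39.2, 70.3 and 55.6 in null line 25 and 56.0, 81.5 and 80.4 in line 39. Every line was lowest in SB, and null line 39 was above the other lines in each treatment. For the accessory complex I subunit Ndufb11, of which 52.4% was covered, WT lines had 13.9 and 12.3 FPKM in SB and 15.2 and 15.6 at 3 h. In null lines it had 14.2 and 17.7 in SB and 16.8 and 16.9 at 3 h. At 6 h it had 14.3 and 13.3 FPKM in WT lines and 13.5 and 15.3 in null lines, where each was below the SB value of its line. A locus on 12.1% of Ndufa1, also an accessory subunit, had 20.0, 23.0 and 22.4 FPKM in WT line 18 and 17.0, 22.0 and 19.4 in line 26, and 19.7, 21.4 and 20.8 in null line 25 and 24.2, 25.0 and 27.2 in line 39, each line being lowest in SB.

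In promoters of members with a RefSeq entry, NRF1 letters stood in 10 of 32 that rose in WT lines at 3 h (31.2%) and in 6 of 27 not called (22.2%). SP letters stood in 34.4% and 48.1%, and YY1 letters in 18.8% and 11.1%. These shares are descriptions of small sets with no test.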
